A study of Homo sapiens with 12 samples.

Results

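The transcriptome of T1 (MCFT1, named atypical hyperplasia in the series design) was compared with that of NeoT (MCFNeoT, named benign hyperplasia there) across all genes of the deposited table. The members of the comparison are the 3 T1 and 3 NeoT libraries, 6 of 12 in the series. They were chosen by their labels alone, and libraries of the other lines, A10 (MCF10A, the non-tumorigenic parent) and CA1 (MCFCA1, invasive), entered no test except an alternative fit to all 12 libraries. As background, all are human mammary lines of 1 family: NeoT was made by giving MCF10A an activated HRAS, and T1 was grown out of a NeoT xenograft, so T1 and NeoT share the parent and the oncogene. The design calls all of the lines triple-negative, and its stated aim was the reproducibility of a preparation that yields DNA, RNA and peptides together. RNA was DNase I treated and sequenced, and the replicates are called biological. They are replicates of 1 line each, so a difference between T1 and NeoT cannot be told apart from a difference between the cultures they were taken from. Culture conditions and passage are not given in the labels.

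Epithelial cells are held together by E-cadherin junctions, tight junctions and desmosomes. Epithelial genes are kept active by transcription factors such as GRHL2 and TP63. In the epithelial-mesenchymal transition (EMT), repressors of the SNAI, ZEB and TWIST families switch such genes off, and vimentin, fibronectin and other matrix genes come up. RAS signalling is a known inducer of this programme in mammary cells, and cells can also pass back through it, towards the epithelial state.

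Library totals ran from 18032404 to 30406179 counts, with 12663 to 13585 genes reaching 10 counts. Levels are given in CPM (read counts scaled to the library total and then by TMM factors) for replicates 1, 2 and 3 in that order, or as mean ± SD (n = 3 per line). Where a line had 0 counts throughout, levels of up to 0.0348 CPM in T1 or 0.0463 CPM in NeoT are allowed, which is what 3 counts per line come to. A fold given as "at least" was computed at that limit, and limits and intervals cover counting error only. Over the 13516 genes tested, the log2 CPM of library pairs had a Pearson's r that ran from 0.984 to 0.988 within T1 and from 0.977 to 0.988 within NeoT. It ran from 0.791 to 0.798 between the lines. The spread between replicates, as biological coefficient of variation, was 8.10% in T1 and 15.5% in NeoT, where replicate 3 stood farthest from the others. Cytoplasmic rRNA held 7.76% of T1 replicate 1, against 1.65% and 2.10% in the other T1 libraries and 1.48% to 2.18% in NeoT.

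Most of the measured transcriptome differed between the lines. Of 13516 tested genes, 4578 were called higher in T1 (33.9% of tested genes) and 4314 lower (31.9%), at an edgeR quasi-likelihood adjusted p under 0.05, together 65.8%. An unadjusted p under 0.05 was reached by 68.6%. At least 2-fold changes were called in 2249 genes in the higher direction (16.6%) and 1816 in the lower (13.4%). All T1 libraries lay above all NeoT libraries for 4972 genes (36.8%) and below them for 4643 (34.4%). The median log2 fold change over all tested genes was 0.01. This median depends on the scaling, and was -0.04 with upper-quartile scaling. Counts of list members below stand against these shares, since 65.8% of genes of any kind were called. Gene lists are described by their counts and medians, and no list was tested as a set.

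**Figure D1:**
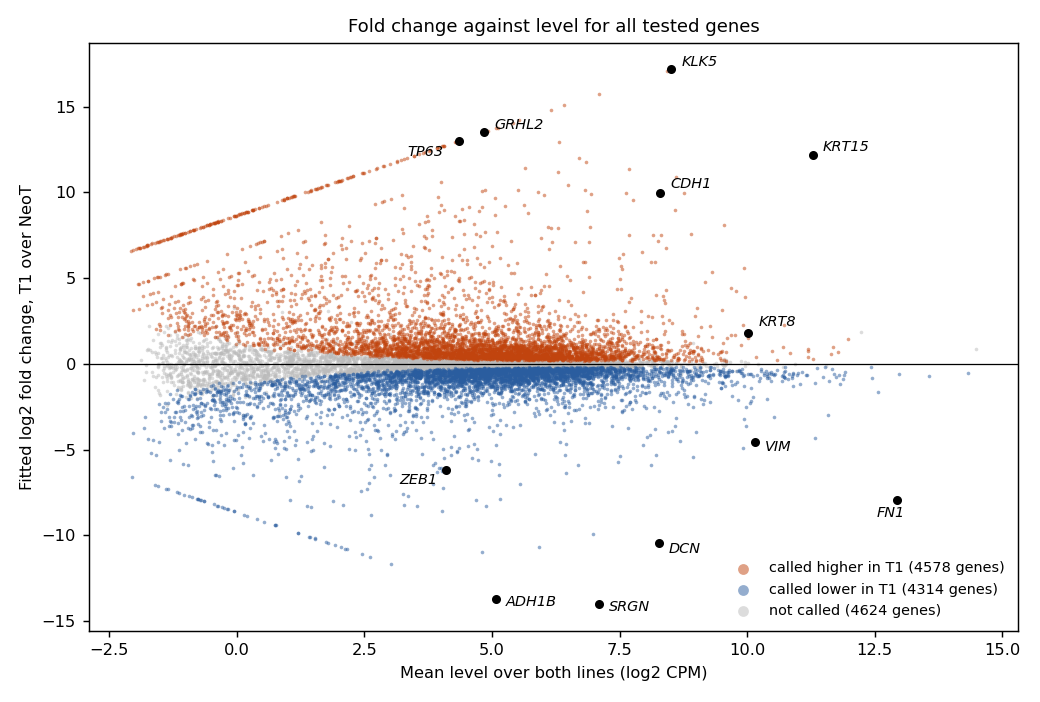
Fitted log2 fold change of T1 over NeoT (y axis) against the mean level of both lines in log2 CPM (x axis) for 13516 tested genes. Points are coloured by call: 4578 higher in T1, 4314 lower and 4624 not called. The straight edges hold genes with 0 counts in 1 of the lines, whose fitted fold depends on a prior count. KLK5, GRHL2 and KRT15 lie among the largest rises and SRGN, ADH1B and DCN among the largest falls.

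Every tested gene of the epithelial junction list rose. This list, like the others, was drawn up with earlier results of these data known. CDH1 (E-cadherin; chromosome 16, 68737292 to 68835537, GRCh38), which ties neighbouring epithelial cells together, stood at 607, 651 and 633 CPM in the T1 libraries, against 0.64, 0.253 and 1.13 CPM in the NeoT libraries. Every T1 library lay far above every NeoT library, and the fitted difference was 982-fold higher in T1 (log2 9.94, SE 0.23, adjusted p = 1.41e-10). EPCAM (chromosome 2, 47369311 to 47387020), an epithelial surface glycoprotein used to mark carcinoma cells, stood at 234, 228 and 238 CPM in T1, against 6.27, 7.11 and 7.83 CPM in NeoT, 33.1-fold higher with no overlap (adjusted p = 5.06e-11). Unlike CDH1, it was present at several CPM in every NeoT library. CGN (cingulin, a tight junction scaffold) averaged 32.4 ± 3.14 CPM in T1 and had 0 counts in NeoT, at least 706-fold higher. The adhesion gene MPZL2 (69.7 ± 2.38 CPM in T1), AP1M2, a sorting adaptor of epithelial membranes (142 ± 2.06 CPM), and the small GTPase gene RAB25 (92.7 ± 4.09 CPM) were likewise at 0 counts in NeoT. Of 26 listed junction and adhesion genes, 25 were tested and all 25 rose, with a median log2 fold change of 7.17 against 0.01 over all genes. CLDN3 was not tested, with a single count in T1 and none in NeoT. As these are bulk samples, fewer cells expressing a gene and less RNA per cell cannot be told apart.

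ZEB and SNAI repressors bind the sequence CAGGTG, a form of the E-box. The upstream stretches of 3 junction genes that hold it on either strand and were at or near 0 in NeoT are shown for that reason. They are the 250 bases before the annotated start, from RefSeq on GRCh38.p14, read 5′ to 3′ on the gene's strand, with capitals for CAGGTG or its reverse complement CACCTG.
CRB3: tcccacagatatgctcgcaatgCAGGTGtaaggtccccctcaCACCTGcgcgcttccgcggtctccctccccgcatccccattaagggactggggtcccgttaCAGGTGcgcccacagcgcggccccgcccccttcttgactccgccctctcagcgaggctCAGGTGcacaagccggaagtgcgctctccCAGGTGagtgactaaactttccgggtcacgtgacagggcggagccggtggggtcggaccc
AP1M2: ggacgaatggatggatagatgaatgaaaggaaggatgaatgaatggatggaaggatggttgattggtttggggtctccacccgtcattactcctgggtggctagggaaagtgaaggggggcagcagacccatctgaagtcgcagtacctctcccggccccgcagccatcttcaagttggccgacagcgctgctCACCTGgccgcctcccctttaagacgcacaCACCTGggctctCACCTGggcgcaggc
RAB25: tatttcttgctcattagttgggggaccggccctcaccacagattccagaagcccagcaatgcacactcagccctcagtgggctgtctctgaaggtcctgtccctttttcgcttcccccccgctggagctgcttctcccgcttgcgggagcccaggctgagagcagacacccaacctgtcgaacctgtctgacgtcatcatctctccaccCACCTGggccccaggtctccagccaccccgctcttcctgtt
The CRB3 stretch (chr19:6464021-6464270, plus strand) holds 5 matches, AP1M2 (chr19:10587313-10587562, minus strand) holds 3 and RAB25 (chr1:156060910-156061159, plus strand) holds 1. CRB3, an apical polarity gene, stood at 18.8, 16.9 and 21.2 CPM in T1, against 0.0426, 0 and 0 CPM in NeoT, where a single count was seen. Of the junction genes, 14 were matched in the promoter table used, and 6 of those 14 held at least 1 match on either strand. The CGN entry held 0 matches, although CGN was also at 0 counts in NeoT. Those of CLDN1, CLDN3, CLDN4, CLDN7, MARVELD2, SPINT1 and TJP3 held 0 as well. Over all 27305 promoter entries the share was 17.5%, and 1687 of the 10513 entries of tested genes held one. It was 23.1% of 1666 entries for genes called at least 2-fold higher in T1 and 15.3% of 1309 for those called at least 2-fold lower. A match is a description of the letters, and binding was not measured. The 3 stretches were picked after the levels and matches were seen.

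Desmosome and hemidesmosome genes, which anchor keratin filaments to neighbours and to the basement membrane, rose in 16 of 19 tested cases and fell in 3 (median log2 fold change 1.90). COL17A1, a hemidesmosome collagen, stood at 872, 893 and 858 CPM in T1, against 0.597, 0.926 and 1.19 CPM in NeoT, 985-fold higher (adjusted p = 1.70e-11). The desmosomal cadherin genes DSG3 and DSC2 averaged 484 ± 14.4 and 173 ± 2.08 CPM in T1, against 5.27 ± 1.4 and 4.89 ± 0.365 CPM in NeoT. LAMA3, a laminin-332 chain, was 27.6-fold higher and JUP (plakoglobin) 6.89-fold higher. Within this group ITGB4, the hemidesmosome integrin, went the other way: 2973, 2988 and 2827 CPM in T1, against 9202, 9191 and 9025 CPM in NeoT, 3.12-fold lower with no overlap (adjusted p = 2.60e-09). PLEC and CD151 also fell, by -0.21 and -0.38 as log2 fold changes. PLEC lost its call without T1 replicate 1, 2 or 3 or NeoT replicate 2 (adjusted p 0.0535 to 0.112).

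**Figure D2:**
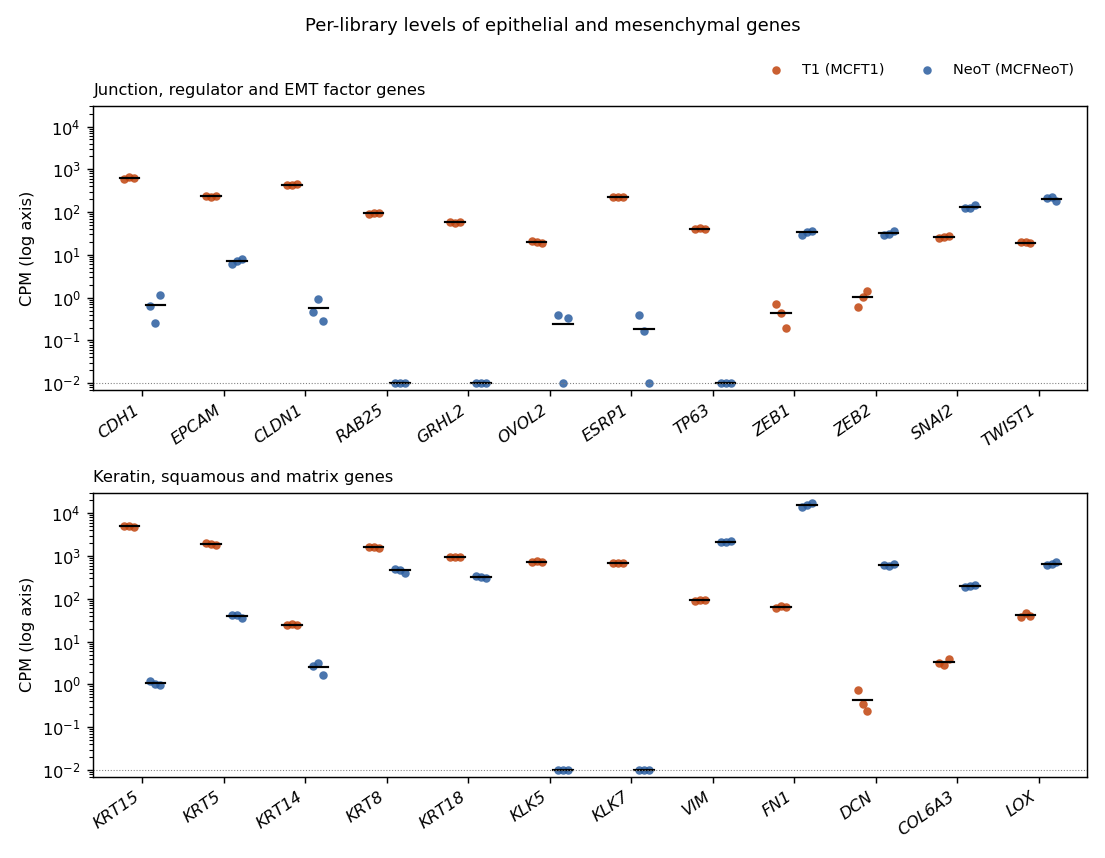
CPM on a log axis (y) for 24 genes (x) in the 3 T1 libraries (orange, left of each pair) and the 3 NeoT libraries (blue, right), with bars at the means. Values under 0.01 CPM, zeros included, are drawn on the dotted line. T1 lies above NeoT for the junction, keratin and kallikrein genes and below it for ZEB1, ZEB2, SNAI2, TWIST1, VIM, FN1, DCN, COL6A3 and LOX, without overlap.

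Regulators of epithelial identity and of EMT changed in opposite directions. Of 19 tested epithelial transcription and splicing regulators, 17 rose and 1 fell (median log2 fold change 4.03). GRHL2, a Grainyhead factor that maintains epithelial genes (chromosome 8, 101492439 to 101681200), stood at 59, 54.8 and 59.3 CPM in T1 and had 0 counts in every NeoT library, at least 1243-fold higher. TP63, the master factor of basal epithelium, stood at 39.2, 42.7 and 40.6 CPM in T1, also against 0 counts in NeoT (at least 884-fold higher). OVOL1, a zinc finger repressor of EMT genes, averaged 14.5 ± 1.6 CPM in T1 and had 0 counts in NeoT. Its relative OVOL2 stood at 20.8, 19.5 and 18.7 CPM in T1, against 0.384, 0 and 0.34 CPM in NeoT, 82.9-fold higher (adjusted p = 1.93e-07). ESRP1, which directs epithelial splicing, stood at 224, 226 and 229.8 CPM in T1, against 0.384, 0.168 and 0 CPM in NeoT (1104-fold higher, adjusted p = 2.10e-10). Not all of the group differed: GRHL3 averaged 14.5 ± 0.688 CPM in T1 and 16.3 ± 1.81 CPM in NeoT (adjusted p = 0.246). TFAP2C fell, with 30, 36.5 and 37.6 CPM in T1 and 42.4, 43.6 and 45 CPM in NeoT, a call lost without T1 replicate 1 (adjusted p = 0.0716).

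Of 15 EMT transcription factors, 11 were tested, 7 fell, 1 rose and 3 did not pass (median log2 fold change -2.33). ZEB1, a repressor of CDH1, stood at 0.695, 0.433 and 0.2 CPM in T1, against 29.9, 34.8 and 36.4 CPM in NeoT, 73.8-fold lower (adjusted p = 7.61e-09). Its relative ZEB2 stood at 0.591, 1.02 and 1.44 CPM in T1, against 29.5, 30.7 and 35.5 CPM in NeoT (31.6-fold lower, adjusted p = 2.09e-08). Both were close to absent in T1 and clearly present in NeoT. SNAI1 averaged 0.569 ± 0.23 CPM in T1 and 10.1 ± 1.34 CPM in NeoT, 17.7-fold lower. SNAI2, TWIST1 and TWIST2 also fell but stayed measurable in T1. SNAI2 stood at 24.8, 26.8 and 26.9 CPM in T1, against 125, 125 and 146 CPM in NeoT (5.04-fold lower). TWIST1 averaged 19.3 ± 0.485 CPM in T1 and 208 ± 25.7 CPM in NeoT (10.7-fold lower), and TWIST2 11.4 ± 1.53 CPM in T1 and 41.3 ± 2.98 CPM in NeoT (3.64-fold lower). FOXC2 was 12-fold lower, with 6.08, 4.7 and 7.15 CPM in T1 and 81.5, 81.9 and 50.5 CPM in NeoT, where replicate 3 was the lowest. FOXC1 went against the list, with 97.4, 87.5 and 90 CPM in T1 and 25.3, 32.2 and 24.6 CPM in NeoT (3.34-fold higher, adjusted p = 3.05e-07). TBX18, KLF8 and TCF4 had log2 fold changes of -0.12, 0.20 and 0.43 with adjusted p of 0.47, 0.267 and 0.0632. TCF4 was called higher in 4 alternatives (adjusted p 0.0138 to 0.0465), which were limma-voom, the fit to all 12 libraries, the fit without NeoT replicate 3 and the fit that also left out T1 replicate 1. SNAI3, PRRX1, PRRX2 and GSC were too low to test, at 0.26 CPM or less on average in either line.

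ZEB1 and ZEB2 transcripts are known targets of the miR-200 family and of miR-205 in epithelial cells. MIR205HG (chromosome 1, 209428820 to 209432549), the host transcript of miR-205, stood at 31, 32 and 30.4 CPM in T1 and had 0 counts in NeoT, at least 674-fold higher. It was singled out after its values were seen, because of this background. The mature product of its locus, from RefSeq, is shown with its seed, bases 2 to 8, in capitals.
hsa-miR-205-5p: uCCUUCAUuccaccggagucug
Mature miRNAs were not measured in these libraries, and the hairpin rows MIR205, MIR200A, MIR200B, MIR200C, MIR141 and MIR429 had 0 counts in all 6.

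Keratins form the intermediate filaments of epithelia. Basal and stress keratins rose in 11 of 12 cases and fell in 1 (median log2 fold change 5.35). KRT15, a keratin of basal progenitors (chromosome 17, 41513745 to 41518890), stood at 5163, 5047 and 4772 CPM in T1, against 1.19, 1.01 and 0.964 CPM in NeoT, 4677-fold higher (log2 12.19, SE 0.11, adjusted p = 8.31e-13). KRT5, which forms the basal filament network with KRT14, stood at 1989, 1954 and 1811 CPM in T1, against 41.5, 40.9 and 35.3 CPM in NeoT (48.8-fold higher). KRT14 itself was low in both lines, with 23.9, 26.2 and 24.1 CPM in T1 and 2.64, 3.2 and 1.7 CPM in NeoT (9.65-fold higher). KRT17, KRT6A and KRT6B, induced in stressed and wounded epithelium, were 276-fold, 21.7-fold and 969-fold higher. KRT6A, KRT6B and KRT6C are near-identical copies whose reads can be divided between them, so their separate values are uncertain. KRT80 was slightly lower in T1 (1.23-fold). The simple epithelial keratins differed less: KRT8 stood at 1648, 1639 and 1571 CPM in T1, against 498, 476 and 413 CPM in NeoT (3.5-fold higher). KRT18, its partner, stood at 962, 978 and 936 CPM in T1, against 337, 319 and 309 CPM in NeoT (2.98-fold higher), and KRT7 was 1.65-fold higher. All 4 tested simple keratins rose, KRT19 among them, which averaged 4.62 ± 1.74 CPM in T1 and 0.0702 ± 0.122 CPM in NeoT. Epithelial markers were thus uneven in NeoT. CDH1, EPCAM, KRT14, KRT19 and TP63 were at under 10 CPM there, KRT19 being under 10 CPM in T1 as well. KRT5 lay between, at 35.3 to 41.5 CPM, whereas KRT8 and KRT18 were each at over 300 CPM. KRT7, KRT81 and ITGB4 were also at over 300 CPM in NeoT. Summed over their lists, basal and stress keratins came to 14609 to 15500.1 CPM in T1 and 2085 to 2821 CPM in NeoT, and desmosome and hemidesmosome genes to 14587 to 14918 CPM in T1 and 14193 to 14616 CPM in NeoT.

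Squamous differentiation genes rose in 20 of 22 tested cases and fell in 2. Their median log2 fold change was 7.31, or 5.67 when those at 0 were set to their limit. The tissue kallikrein genes KLK5 and KLK7, secreted serine proteases that loosen the outer epidermis, showed the largest rises under the naming rule. KLK5 stood at 727, 748 and 714 CPM in T1 and KLK7 at 674, 708 and 703 CPM, both with 0 counts in NeoT, at least 15797-fold and at least 15022-fold higher. KLK10 (273 ± 10.7 CPM in T1) and KLK6 (39.5 ± 0.707 CPM) were also at 0 counts in NeoT. SPRR1B, a cornified envelope precursor, averaged 25.1 ± 3.9 CPM in T1 and had 0 counts in NeoT. The calgranulin genes S100A8 and S100A9 fell: S100A9 stood at 8.69, 8.01 and 5.36 CPM in T1, against 46.4, 33.4 and 23.5 CPM in NeoT (4.68-fold lower), with a wide spread in NeoT. Of 18 listed luminal mammary genes 11 were tested, of which 9 rose and 1 fell (median 5.96, or 4.62 with bounds). The other 7 were too low to test. CD24, a luminal surface protein, stood at 946, 936 and 979 CPM in T1, against 5.54, 4 and 5.84 CPM in NeoT (187-fold higher, adjusted p = 2.97e-11). ALDH1A3, a retinaldehyde dehydrogenase of mammary progenitors, was 62.1-fold higher, ERBB3 42.8-fold higher and the mucin gene MUC1 18-fold higher. AGR2, an estrogen-regulated disulfide isomerase, averaged 25.7 ± 2.26 CPM in T1 and had 0 counts in NeoT. XBP1 fell (1.52-fold lower). Of the receptors behind the triple-negative name, ESR1 averaged 0.87 ± 0.247 CPM in T1 and had 0 counts in NeoT, and PGR had 0 counts in both. ERBB2 averaged 195 ± 10.1 CPM in T1 and 57.2 ± 4.14 CPM in NeoT.

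By a rule of 0 counts in the other line, presence in 1 line only was more common in T1. With 0 counts in NeoT and at least 10 CPM in each T1 library there were 44 genes (0.326% of tested genes, 41 of them protein-coding), against 4 genes (0.0296%) with 0 counts in T1 and at least 10 CPM in each NeoT library. The 4 were ADH1B, RTN1, SFTPB and GPR173. A rule of 0 counts depends on depth, and library totals were 18032404 to 24903105 in NeoT and 23528572 to 30406179 in T1. SRGN and TNFAIP6, whose few counts in T1 are given below, fell outside the rule. The 12 largest rises under the naming rule were all at 0 in NeoT. Beside KLK5, KLK7, KLK10, AP1M2, RAB25, MPZL2 and GRHL2 they were MUC16, SCEL, A2ML1, MACC1 and ATP10A. MUC16, the cell surface mucin known as CA-125, stood at 169.8, 167 and 174 CPM in T1 (at least 3674-fold higher). SCEL (sciellin, of the cornified envelope) averaged 85.2 ± 4.29 CPM in T1, the protease inhibitor gene A2ML1 67.4 ± 2.75, MACC1 60.9 ± 0.623 and the phospholipid flippase gene ATP10A 41.4 ± 3.93.

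Among the 12 largest falls, SRGN (serglycin, a proteoglycan of secretory granules) had 1 count in T1 and stood at 265, 258 and 294 CPM in NeoT, a ratio of NeoT to T1 of 23288 (95% counting interval 4179 to 919898). ADH1B, an alcohol dehydrogenase, had 0 counts in T1 and 68.2, 65.6 and 68.1 CPM in NeoT, at least 1930.1-fold lower in T1. RTN1 and SFTPB (surfactant protein B) were at 0 in T1 and averaged 16.3 ± 0.399 and 12.2 ± 0.687 CPM in NeoT, and the receptor gene GPR173 averaged 11 ± 0.878 CPM in NeoT. TNFAIP6, a hyaluronan-binding protein of inflammation, had 2 counts in T1 and averaged 56.2 ± 2.78 CPM in NeoT, a ratio of NeoT to T1 of 2410.3 (95% counting interval 667 to 19910). DCN (decorin, a small proteoglycan that binds collagen; chromosome 12, 91140484 to 91182817) stood at 0.73, 0.34 and 0.24 CPM in T1, against 612, 588 and 654 CPM in NeoT, 1386-fold lower (adjusted p = 3.82e-11). GALNT15, which starts mucin-type glycosylation, averaged 0.241 ± 0.21 CPM in T1 and 254 ± 12.7 CPM in NeoT. GGT5 was 1619.9-fold lower, SULF1 (a heparan sulfatase) 378-fold, CIDEC (a lipid droplet protein) 311-fold and FAM65B 308-fold lower. None of these 12 genes had overlapping replicates between the lines, as the naming rule asked.

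As a share of all counts, FN1 took 0.00662% in T1 and 1.5% in NeoT, the largest difference of any gene outside rRNA. ITGB4, EEF1A1, FTH1, TGFBI and FTL also took smaller shares in T1. FTL, the light chain of ferritin, held 0.0257% in T1 and 0.475% in NeoT, and FTH1, the heavy chain, 0.95% in T1 and 1.44% in NeoT. Ferritin genes have many processed copies, so their counts can be divided between rows. KRT15 held 0.519% in T1 and 0.000101% in NeoT, and ACTB (beta-actin) 0.616% in T1 and 0.213% in NeoT. KRT81, KRT7 and KRT5 were also among the larger shares in T1, KRT81 with 0.454% in T1 and 0.211% in NeoT. ACTB was 2.68-fold higher in CPM (adjusted p = 1.16e-07).

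Mesenchymal genes did not move as 1 block. FN1 (fibronectin; chromosome 2, 215360865 to 215436068) stood at 59.9, 66.6 and 64.2 CPM in T1, against 13933, 15533 and 17365 CPM in NeoT, 245-fold lower (log2 -7.94, SE 0.11, adjusted p = 1.70e-11). VIM (vimentin; chromosome 10, 17228241 to 17237593) stood at 90.1, 91.9 and 95.1 CPM in T1, against 2171, 2169 and 2209.8 CPM in NeoT, 23.6-fold lower (adjusted p = 1.70e-11). CDH2 (N-cadherin) averaged 17.3 ± 0.733 CPM in T1 and 44.9 ± 9.77 CPM in NeoT (2.59-fold lower). Of 22 tested mesenchymal cytoskeleton and matrix genes, 10 fell, 8 rose and 4 did not pass (median log2 fold change -0.48), against 31.9% of all genes falling and 33.9% rising. THBS1 (thrombospondin-1) rose, with 1847, 1863 and 1907 CPM in T1 and 117, 121 and 135 CPM in NeoT (15-fold higher). SPARC, a matricellular glycoprotein, was 39-fold higher, TNC (tenascin-C) 6.67-fold and the protease gene FAP 3.62-fold higher. BGN, MYL9, CALD1 and EFEMP1 also rose.

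Among collagens 9 of 16 fell and 4 rose (median -0.52). COL6A3 and COL6A1, chains of the microfibrillar collagen VI, averaged 3.36 ± 0.551 and 4.18 ± 0.7 CPM in T1, against 202 ± 13.3 and 168 ± 17.5 CPM in NeoT. They were 60.5-fold and 40-fold lower. COL16A1 and COL18A1 rose 14.9-fold and 10.1-fold, and COL8A1 and COL13A1 rose as well, while COL7A1 fell 3.32-fold. Of 4 tested lysyl oxidases, which cross-link collagen, 2 fell and 1 rose. LOX stood at 38.1, 47.6 and 40.2 CPM in T1, against 615, 639 and 720.5 CPM in NeoT (15.7-fold lower), and LOXL2 was 4.26-fold lower. LOXL3, at under 1 CPM in both lines, was 8.23-fold higher. Of 5 tested laminin chains outside laminin-332, 4 fell: LAMB1 5-fold, LAMA5 4.95-fold, LAMC1 3.87-fold and LAMB2 3.26-fold. Over the 5 the median was -1.95.

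Integrins, the receptors for these matrices, fell in 7 of 14 cases and rose in 5 (median -0.11). ITGA5, the fibronectin receptor chain, stood at 151, 151 and 151 CPM in T1, against 1864, 1902 and 1812 CPM in NeoT (12.3-fold lower, adjusted p = 2.97e-11). ITGB6, an epithelial integrin that activates latent TGF-beta, went the other way, with 387, 386 and 410.2 CPM in T1 and 0.128, 0.505 and 0.567 CPM in NeoT (1008-fold higher, adjusted p = 5.19e-11). ITGB2, best known from leukocytes, averaged 98.7 ± 1.75 CPM in T1 and 0.142 ± 0.178 CPM in NeoT. ITGA2, a collagen receptor chain, was 5.86-fold higher and ITGA10 17.3-fold lower, and ITGB7 and ITGB8 rose. Metalloproteinases and their inhibitors fell in 9 of 13 cases and rose in 4 (median -1.01). The inhibitor TIMP1 averaged 194 ± 4.28 CPM in T1 and 1769.9 ± 64.9 CPM in NeoT (9.14-fold lower), TIMP2 was 2.01-fold lower and RECK 4.41-fold lower. MMP7 (matrilysin) rose 46.6-fold and MMP28 7.26-fold, the only 2 rises of at least 2-fold. At least 2-fold falls were called in 7 members, the largest with a log2 fold change of -4.45. That member and others that fell are not named here, so the named genes do not show how proteases and inhibitors differed. MMP14 and TIMP3 rose 1.24-fold each, and MMP14 lost its call with upper-quartile scaling and without any 1 of the T1 libraries (adjusted p 0.0628 to 0.116). In the plasminogen system 4 of 7 genes rose and 2 fell (median 1.18). The activators PLAU and PLAT were 6.91-fold and 7.31-fold higher and the inhibitor SERPINB2 15.1-fold higher. The inhibitor SERPINE2 was 30.6-fold lower, with 60.6, 59.9 and 63.2 CPM in T1 and 1858, 1813 and 1947 CPM in NeoT.

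**Figure D3:**
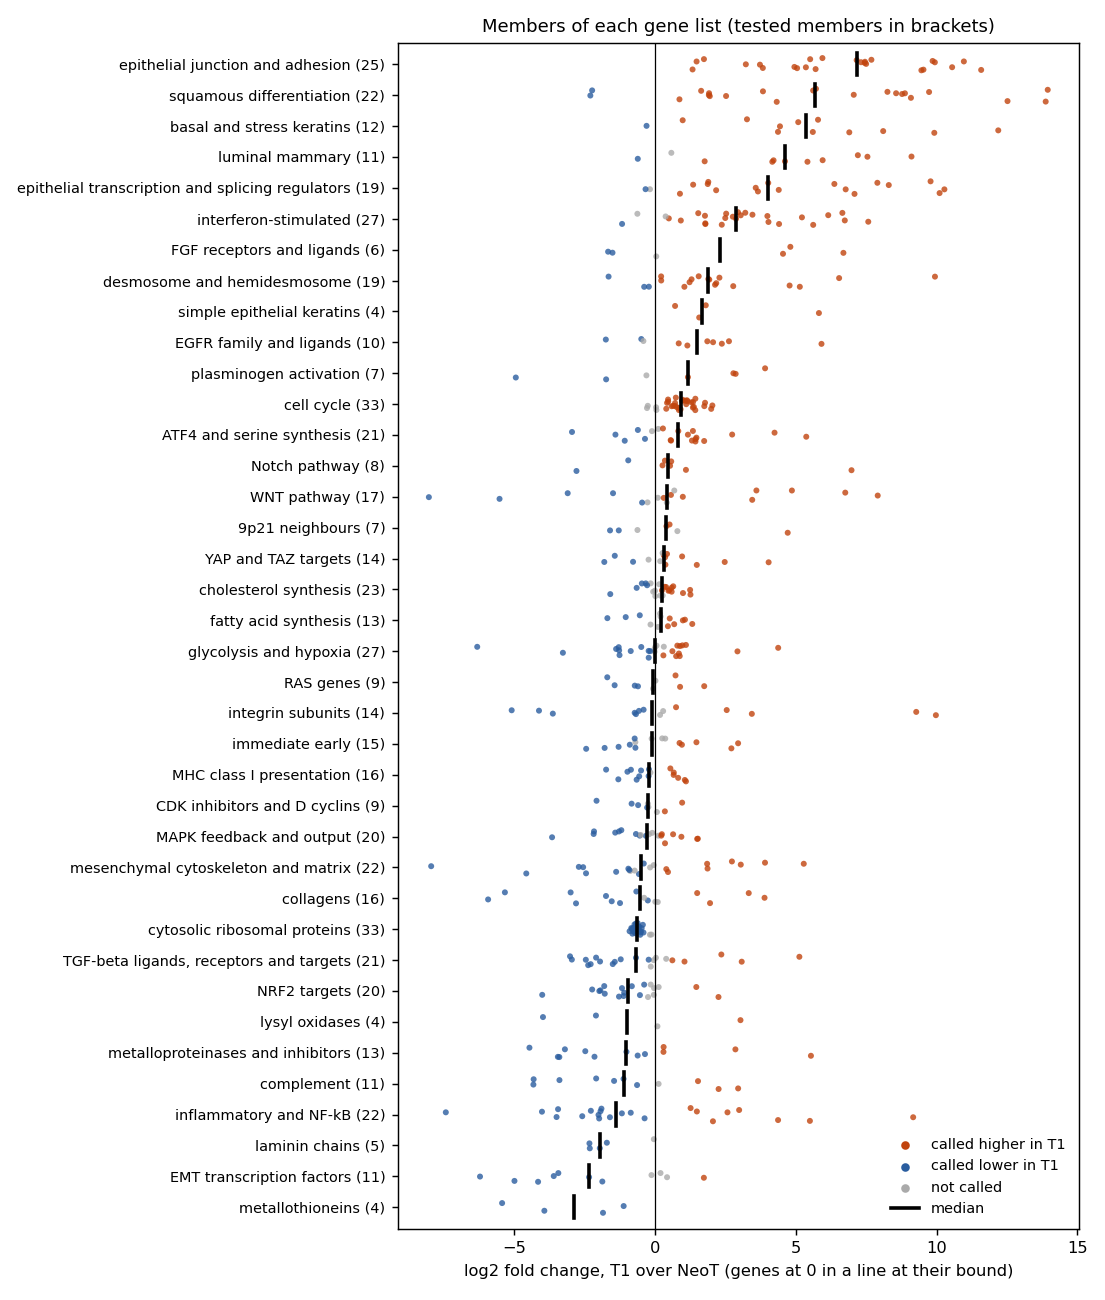
Log2 fold change of T1 over NeoT (x axis) for the tested members of 38 gene lists (rows, with the number of tested members in brackets), ordered by median. Each dot is a gene, coloured by call, with genes at 0 in a line at their bound, and the black bar is the list's median. Junction and squamous genes lie farthest to the right, with medians of 7.17 and 5.67, and metallothioneins farthest to the left, with -2.88.

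Markers of other cell types were read beside these genes. Of 12 stromal fibroblast markers 6 were tested, 4 fell and 2 did not pass. Their summed level was 4 to 5.28 CPM over the T1 libraries and 635 to 699 CPM over the NeoT libraries. Most of the NeoT sum was DCN. All 4 falls were at least 2-fold, and not every marker that fell is named here. Among the other markers, PDGFRA, PDGFRB, LUM and COL3A1 stood at 0.3 CPM or less in both lines, and PI16 at 0. COL1A1 averaged 0.999 ± 0.414 CPM in T1 and 7.96 ± 0.293 CPM in NeoT. Adipocyte markers rose in 3 and fell in 4 of 9 tested cases, with sums of 292 to 311 CPM in T1 and 350.4 to 456 CPM in NeoT. CIDEC and PLIN1, lipid droplet proteins, were 311-fold and 14.1-fold lower. The largest fitted fall of the list, a log2 fold change of -10.19, was of a marker not named here. LPL (lipoprotein lipase) was 289.8-fold higher and PLIN4 2.26-fold higher. PPARG averaged 39.4 ± 4.27 CPM in T1 and 46.9 ± 4.69 CPM in NeoT (adjusted p = 0.0703), and ADIPOQ was at 0 in both. Of 11 leukocyte markers 3 were tested, 2 rising and 1 falling, with sums of 105 to 113 CPM in T1 and 199.6 to 215 CPM in NeoT. CSF1R rose 65.9-fold, CD14 rose 1.73-fold and CD68 fell 23.7-fold, while PTPRC and CD3E were at 0 in both. Endothelial markers summed to 81 to 88.6 CPM in T1 and 2.53 to 3.54 CPM in NeoT. That sum was mostly PECAM1 (39-fold higher), and 1 of 2 tested rose, with ERG and EMCN at 0 in both lines. Melanocyte and neural markers summed to 33.2 to 35.6 CPM in T1 and 91.8 to 99.2 CPM in NeoT, mostly TUBB3 (2.87-fold lower), with 1 of 2 tested falling. Smooth muscle and pericyte markers summed to 85.3 to 95.7 CPM in T1 and 155 to 190.2 CPM in NeoT. Of 4 tested, 2 fell (MCAM 2.4-fold, NOTCH3 1.92-fold) and 1 rose (CSPG4). CSPG4 lost its call in 6 alternatives (adjusted p 0.0614 to 0.337).

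HRAS (chromosome 11, 532242 to 535576), the gene used to make both lines, stood at 167, 154 and 143 CPM in T1, against 255, 234 and 213 CPM in NeoT, 1.51-fold lower with no overlap (log2 -0.60, SE 0.088, adjusted p = 0.000154). Introduced and endogenous transcripts share this row. NRAS averaged 60.2 ± 2.91 CPM in T1 and 63.1 ± 15.8 CPM in NeoT (adjusted p = 0.725). Of 9 RAS genes and regulators, 3 rose and 4 fell (median -0.06). RRAS was 3.22-fold lower and the tumour suppressor RASSF1 2.69-fold lower, RRAS2 was 1.66-fold higher and RASA1, a GTPase-activating protein that turns RAS off, 3.37-fold higher. MRAS was 1.64-fold lower, a call lost without T1 replicate 3 (adjusted p = 0.0595). NF1, another RAS inactivator, averaged 86.9 ± 3.93 CPM in T1 and 85.7 ± 17.8 CPM in NeoT (adjusted p = 0.889). NF1 was called higher without NeoT replicate 3 (log2 0.20, adjusted p = 0.0129).

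Genes that read out MAPK signalling below RAS were divided: 9 of 20 fell and 7 rose (median -0.26). The phosphatase gene DUSP1 stood at 60, 56 and 53.4 CPM in T1, against 706, 707 and 711 CPM in NeoT (12.5-fold lower). The feedback inhibitor SPRY4 was 4.5-fold lower, the ERK phosphatase genes DUSP4 2.42-fold and DUSP6 2.28-fold lower, and MYC 2.65-fold lower. CCND1 (cyclin D1) rose, with 1146, 1151 and 1145 CPM in T1 and 382, 385 and 447 CPM in NeoT (2.84-fold higher). SPRY1, IER3, SPRED2, DUSP7, PHLDA1 and EPHA2 also rose, by log2 fold changes of 1.53, 0.94, 0.65, 0.36, 0.23 and 0.25. PHLDA1 and EPHA2 lost their calls in 2 fits each that left out a T1 library (adjusted p 0.0533 to 0.0594). Of 15 immediate early genes, 6 fell while 5 rose (median -0.11). NR4A2 was 5.42-fold, ZFP36 3.44-fold and JUNB 2.44-fold lower, while EGR3 was 6.58-fold and ATF3 2.78-fold higher, and FOS, JUN and EGR2 rose.

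Of 10 tested EGFR family receptors and ligands, 7 rose and 2 fell (median 1.51). HBEGF, a membrane-anchored EGFR ligand, stood at 218, 216 and 215 CPM in T1, against 3.67, 3.12 and 4.03 CPM in NeoT (60.4-fold higher, adjusted p = 2.97e-11). EPGN was 5.2-fold, TGFA 2.23-fold and the receptor gene EGFR 1.8-fold higher. EREG (epiregulin) went down, with 49.5, 47.6 and 48.7 CPM in T1 and 144, 159 and 184 CPM in NeoT (3.34-fold lower), and AREG was 1.39-fold lower. Of 6 tested FGF genes 3 rose and 2 fell (median 2.30): FGFBP1, a carrier that frees FGFs from the matrix, averaged 138 ± 6.26 CPM in T1 and 1.32 ± 0.733 CPM in NeoT. FGFR2, whose epithelial splice form marks epithelia, averaged 4.39 ± 0.513 CPM in T1 and 0.141 ± 0.148 CPM in NeoT. FGFR1 was 2.83-fold lower and FGFR4 3.16-fold lower.

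Of 21 TGF-beta and BMP genes, 12 fell while 5 rose (median -0.67). TGFBI, a secreted adhesion protein named for its induction by TGF-beta, stood at 668, 683 and 688 CPM in T1, against 5251, 5201 and 5973 CPM in NeoT (8.06-fold lower, adjusted p = 2.27e-10). The BMP-responsive repressors ID1 and ID3 were 5.15-fold and 7.71-fold lower and the co-receptor TGFBR3 5.46-fold lower. The ligand genes TGFB1 and TGFB2 were 4.24-fold and 2.68-fold lower, and the receptor gene TGFBR2 averaged 589 ± 7.2 CPM in T1 and 573 ± 35.9 CPM in NeoT (adjusted p = 0.642). FST (follistatin) and NOG (noggin), secreted antagonists of activin and BMPs, rose 8.48-fold and 5.14-fold. BMP4, INHBA and ID2 also rose. In the Notch pathway 6 of 8 tested genes rose and 2 fell (median 0.45), NOTCH1 2.15-fold higher, JAG2 1.5-fold, JAG1 1.46-fold and HES1 1.28-fold higher, NOTCH3 1.92-fold lower and HEY1 6.88-fold lower. HES1 lost its call with upper-quartile scaling and without any 1 of the T1 libraries (adjusted p 0.0522 to 0.112). Among 17 WNT genes 8 rose and 5 fell (median 0.43). The ligand gene WNT5A stood at 0.939, 0.433 and 0.799 CPM in T1, against 27.9, 31.8 and 38.6 CPM in NeoT (45.6-fold lower), whereas WNT7B was 29.2-fold higher. RNF43, which removes Frizzled receptors, averaged 11.1 ± 0.809 CPM in T1 and had 0 counts in NeoT, and TCF7 and the inhibitor SFRP1 rose 12.2-fold and 11-fold. DKK3, a secreted protein lost in many tumours, had 2 counts in T1 and averaged 7.31 ± 1.36 CPM in NeoT, a ratio of NeoT to T1 of 318 (95% counting interval 87.6 to 2635). AXIN2, FZD2 and FZD1 fell, FZD1 losing its call without T1 replicate 3 or NeoT replicate 2 (adjusted p 0.0532 and 0.0639). Of 14 YAP and TAZ pathway genes, 8 rose while 3 fell (median 0.34). F3 (tissue factor) was 16.4-fold higher, AJUBA 5.58-fold and CYR61 2.81-fold higher, while the receptor kinase gene AXL was 3.47-fold lower, TGFB2 2.68-fold and TEAD4 1.71-fold lower.

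Proliferation genes were higher in T1. Of 33 S phase and mitosis genes, 29 rose and 4 did not pass (median log2 fold change 0.91). In 14 of 17 alternatives 1 or 2 genes of this list were called lower. PCNA, the replication clamp, stood at 132, 135 and 139 CPM in T1, against 41, 39 and 38 CPM in NeoT (3.44-fold higher, adjusted p = 1.11e-08). The mitotic kinase gene PLK1 stood at 47.1, 44.6 and 43.8 CPM in T1, against 13.9, 12.9 and 13.3 CPM in NeoT (3.38-fold higher). Origin licensing gene CDC6, cyclin E2 (CCNE2) and cyclin B1 (CCNB1) were 4-fold, 4.12-fold and 2.71-fold higher. TOP2A averaged 87 ± 3.39 CPM in T1 and 83.8 ± 15.6 CPM in NeoT (adjusted p = 0.695), and with CDT1, RRM1 and MCM7 made up the 4 not called. CDK inhibitors, D cyclins other than CCND1 and their partners were mixed, 2 of 9 rising and 4 falling (median -0.25). CCND1 (cyclin D1), which rose, was counted with the MAPK genes above and enters neither this count nor this median. CDK6 was 1.96-fold higher, CDKN1B (p27) 1.51-fold and CDK4 1.21-fold lower. RB1 was 1.28-fold higher with overlapping replicates, and lost its call in 6 alternatives (adjusted p 0.0532 to 0.123). Cytosolic ribosomal protein genes fell together but by little: 31 of 33 fell and 2 did not pass (median -0.64). RPL4 showed the largest change, with 2553, 2684 and 2649 CPM in T1 and 4831, 4439 and 5406 CPM in NeoT (1.86-fold lower), and RPS18, RPS16 and RPL13 were 1.76-fold, 1.73-fold and 1.72-fold lower. RPS18 lost its call when T1 replicate 1 and NeoT replicate 3 were both left out (adjusted p = 0.0575). Ribosomal protein genes have many processed copies that can share reads.

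The 9p21 locus holds the tumour suppressor CDKN2A, which MCF10A is known to have lost. CDKN2A and CDKN2B had 0 counts in all 6 libraries of T1 and NeoT. Their neighbour MTAP averaged 0.561 ± 0.18 CPM in T1 and 1.71 ± 0.611 CPM in NeoT (3.01-fold lower), a call lost without NeoT replicate 1 (adjusted p = 0.0674) and when T1 replicate 1 and NeoT replicate 3 were both left out (adjusted p = 0.0549). Of 7 tested genes around the locus 3 rose and 2 fell (median 0.41). ELAVL2, an RNA-binding protein gene, averaged 13.4 ± 1.02 CPM in T1 and 0.485 ± 0.231 CPM in NeoT (26.3-fold higher). FOCAD was 1.44-fold higher and KLHL9 1.33-fold higher, though KLHL9 lost its call without T1 replicate 2 or 3 (adjusted p 0.0504 and 0.0524). MLLT3 was 2.43-fold lower. DMRTA1 and IFNE had adjusted p of 0.122 and 0.143, and PTPLAD2 was not tested.

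Interferon-stimulated genes, the antiviral output of interferon signalling, rose in 24 of 27 tested cases and fell in 1 (median log2 fold change 2.88). IFI27 stood at 54.4, 51.9 and 46.9 CPM in T1, against 0.213, 0.253 and 0.34 CPM in NeoT (191-fold higher, adjusted p = 1.84e-10). IFIT1, which binds foreign RNA ends, stood at 26.5, 25.9 and 28 CPM in T1, against 0.256, 0.463 and 0 CPM in NeoT (101-fold higher). OAS1, which senses double-stranded RNA, was 71.3-fold higher, IFIT2 49.2-fold and SAMD9 37.3-fold higher. IFI44L alone fell, with 15.9, 19.4 and 21.5 CPM in T1 and 40.9, 36.4 and 49.9 CPM in NeoT (2.24-fold lower, adjusted p = 4.94e-05). The listed genes MX2, RSAD2, XAF1, CMPK2 and HERC5 were too low to test. MHC class I presentation genes did not follow: 9 of 16 fell and 6 rose (median -0.21). HLA-B averaged 50.9 ± 1.31 CPM in T1 and 169 ± 13.4 CPM in NeoT (3.32-fold lower), and the trimming peptidase gene ERAP1 was 1.96-fold lower. TAP2 and PSMB10 rose 1.78-fold and 1.59-fold, and HLA-C, HLA-F, NLRC5 and ERAP2 rose too. HLA genes are close paralogs of variable sequence, so their counts are uncertain.

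**Figure D4:**
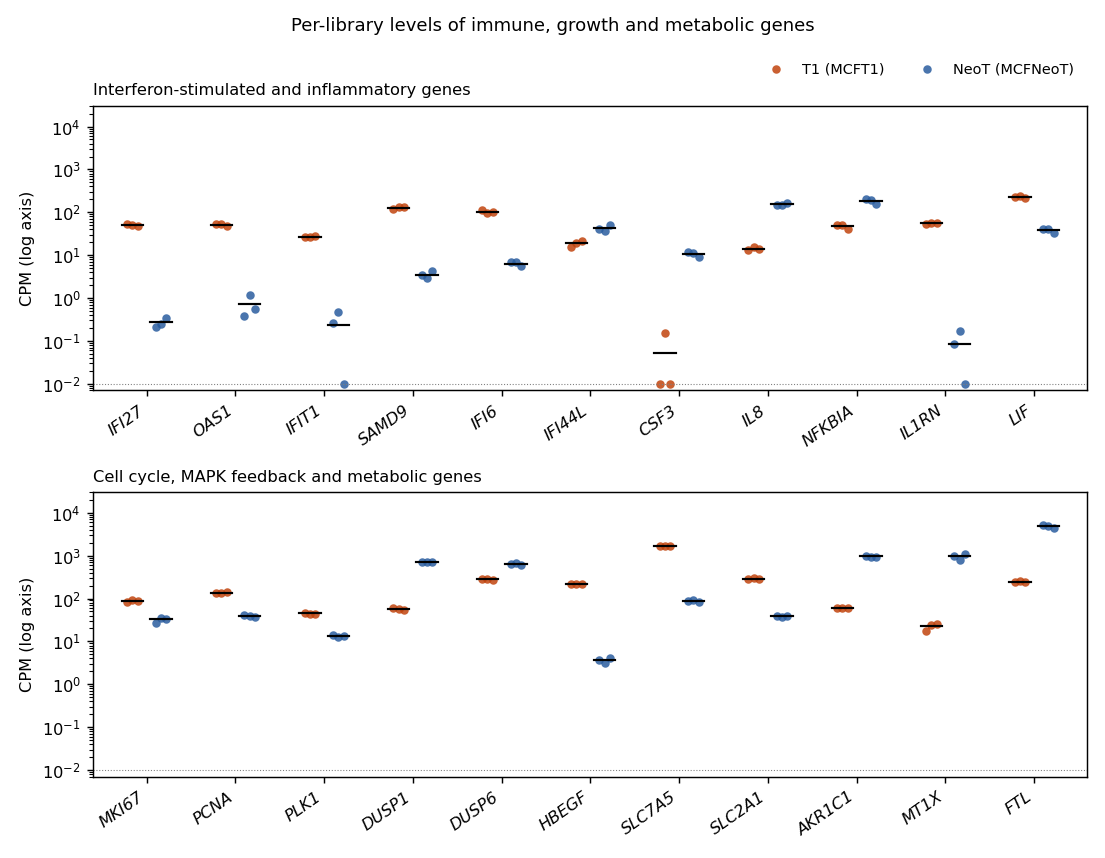
CPM on a log axis (y) for 22 genes (x) in the 3 T1 libraries (orange, left of each pair) and the 3 NeoT libraries (blue, right), with bars at the means and values under 0.01 CPM on the dotted line. Interferon-stimulated genes other than IFI44L lie higher in T1, as do IL1RN, LIF, MKI67, PCNA, PLK1, HBEGF, SLC7A5 and SLC2A1. CSF3, IL8, NFKBIA, DUSP1, DUSP6, AKR1C1, MT1X and FTL lie lower.

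Among 22 inflammatory and NF-kB genes 14 fell and 8 rose (median -1.38). CSF3, the granulocyte colony-stimulating factor gene, had 0, 0.155 and 0 CPM in T1, against 11.7, 11.2 and 9.24 CPM in NeoT (171-fold lower). IL8, a neutrophil chemokine, stood at 13.1, 15.6 and 13.7 CPM in T1, against 147, 148 and 165 CPM in NeoT (10.8-fold lower). A part of the list went up instead. IL1RN, the interleukin-1 receptor antagonist, averaged 56.1 ± 1.46 CPM in T1 and 0.0846 ± 0.0842 CPM in NeoT (576-fold higher), LIF was 5.98-fold and PTGS2 7.96-fold higher, and IL1A and IL1B were 4.18-fold and 2.41-fold higher. TNFAIP2, CSF2 and CXCL10 rose as well, although CXCL10 had a single count in NeoT. Of 11 complement genes, 7 fell while 3 rose (median -1.11). The proteases C1R and C1S were 19.8-fold and 19.7-fold lower, and factor B (CFB) 10.5-fold lower. C3, the central component, rose, with 1516, 1564 and 1541 CPM in T1 and 534, 531 and 533 CPM in NeoT (2.89-fold higher), as did CFI and SERPING1.

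Metabolic groups moved in different directions. NRF2 targets, which detoxify electrophiles, fell in 13 of 20 tested cases and rose in 2 (median -0.95). AKR1C1, a ketosteroid reductase, stood at 60.1, 59.3 and 61.3 CPM in T1, against 1000.3, 941 and 943 CPM in NeoT (16-fold lower), though AKR1C1 and AKR1C2 (3.47-fold lower) are paralogs that can share reads. NQO1, a quinone reductase, was 4.67-fold lower. The cystine carrier SLC7A11 and the glutathione synthesis gene GCLM rose 4.79-fold and 2.78-fold. The count of risen NRF2 targets was 4 without NeoT replicate 3. Metallothioneins, which bind zinc and copper, fell in all 4 tested cases (median -2.88), the other 4 being at 0 in both lines. MT1X stood at 17.6, 24.7 and 25.2 CPM in T1, against 968, 800.4 and 1121 CPM in NeoT (42.8-fold lower), MT1F was 15.1-fold, MT1E 3.58-fold and MT2A 2.15-fold lower. These copies are also alike in sequence.

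ATF4 targets and serine synthesis enzymes numbered 21, with 14 higher and 5 lower (median 0.83). SLC7A5, a carrier of large neutral amino acids, stood at 1674, 1702 and 1648 CPM in T1, against 88.2, 91.4 and 84.4 CPM in NeoT (19-fold higher, adjusted p = 2.26e-11). CHAC1, which degrades glutathione, was 41.5-fold higher, VLDLR 6.7-fold and the serine synthesis phosphatase gene PSPH 3.37-fold higher. DDIT3 (CHOP) fell 7.67-fold, and ATF4, CEBPB, GDF15 and DDIT4 fell too, ATF4 by 1.27-fold. Glycolysis and hypoxia genes were evenly divided, 11 rising and 11 falling of 27 (median 0.01). The glucose carriers moved apart: SLC2A1 stood at 289, 301 and 287 CPM in T1, against 39.2, 36.5 and 39.1 CPM in NeoT (7.64-fold higher). SLC2A3 averaged 0.395 ± 0.316 CPM in T1 and 30 ± 2.13 CPM in NeoT (79-fold lower). ADM, CA12 and ALDOC were 9.6-fold, 2.43-fold and 2.41-fold lower. Among the rises, EGLN3, an oxygen-sensing prolyl hydroxylase gene, averaged 8.47 ± 1.1 CPM in T1 and 0.405 ± 0.0924 CPM in NeoT (20.8-fold higher). The angiogenic factor gene VEGFA was 2.15-fold higher, and the glycolytic enzyme genes PGK1, PKM and LDHA were 1.97-fold, 1.81-fold and 1.69-fold higher. Of cholesterol synthesis genes 11 of 23 rose and 5 fell (median 0.25). INSIG1, the sterol sensor partner, was 2.99-fold lower, LSS and FDPS 2.4-fold and 2.38-fold higher, and MVK and HSD17B7 2-fold and 1.57-fold higher. SQLE, MSMO1 and STARD4 fell. Among 13 fatty acid synthesis genes 6 rose and 3 fell (median 0.20), SREBF1 2.51-fold, ELOVL6 2.1-fold and SCD 1.99-fold higher, FADS1 3.21-fold, ELOVL5 2.05-fold and FASN lower.

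Genes that lie together on a chromosome were compared through the median log2 fold change in 10-Mb windows holding at least 20 tested genes, with GRCh38 positions. Over 235 windows the medians ran from -0.85 to 0.88, with quartiles of -0.11 and 0.16. Chromosome 20 stood lowest among chromosomes, with a median of -0.56 over 345 tested genes, and all 6 of its windows were below 0. Its windows starting at 30000001, 40000001, 50000001 and 60000001 had medians of -0.48, -0.85, -0.64 and -0.78. In the window from 40000001 to 50000000, 40 of 64 genes fell and 14 rose. The windows starting at 1 and 10000001 of the same chromosome had medians of -0.25 each. The highest window was the first of chromosome 9, from 1 to 10000000, with a median of 0.88, where 20 of 30 genes rose and 5 fell. Windows of chromosome 9 starting at 80000001 and 90000001 had medians of -0.62 and -0.56. Similarly low windows lay on chromosomes 5, 2, 13 and 1, with medians of -0.61, -0.56, -0.54 and -0.53. They started at 90000001, 220000001, 90000001 and 70000001. On chromosome 11 the windows starting at 10000001 and 50000001 had medians of 0.55 and 0.63. These windows are described without a test, and DNA was not measured here.

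**Figure D5:**
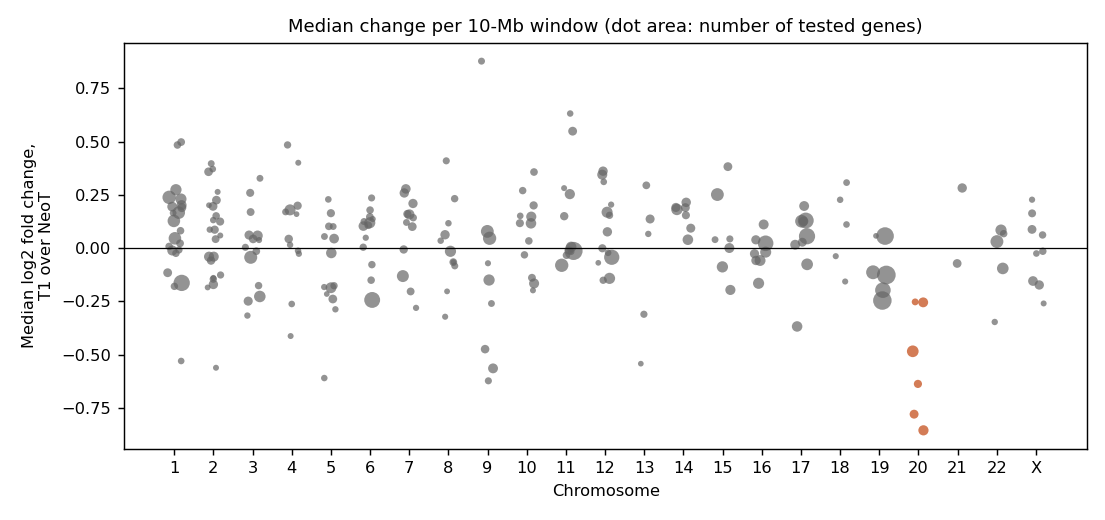
Median log2 fold change of T1 over NeoT (y axis) in 235 windows of 10 Mb, by chromosome (x axis), with dot area scaled to the number of tested genes and chromosome 20 in orange. All 6 windows of chromosome 20 lie below 0, between -0.85 and -0.25, and a chromosome 9 window lies highest at 0.88.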

How the data were processed

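Total RNA of the lines was sequenced. The deposited table holds estimated counts (expected counts) per gene, which its name credits to Salmon, without scaling across libraries. Per the submitters' processing notes GRCh38 and limma were used, with no role given, and annotation, versions and filters are not given in the sources used here. The table has 29744 gene rows, 11723 of them without a count in the 6 libraries used, and 9.72% of those libraries' values were not whole. Values were rounded, which changed none by more than 0.5.

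Genes were filtered with filterByExpr on the line, which left 13516, scaled with TMM and tested with edgeR 4.0.16 (quasi-likelihood, robust, R 4.3.3) on T1 and NeoT alone, two-sided, with Benjamini-Hochberg adjustment over all tested genes and a threshold of 0.05. Positions, gene types and promoters came from RefSeq tables on GRCh38.p14, through the symbol (23171 rows) or a synonym (1787). A further 4786 had no match. Symbols are printed as in the table. The 44 gene lists hold 711 genes, all with a row (5 under an older symbol), of which 608 were tested. Members and lists were chosen with earlier results of these data known. Genes were named by rule: fixed markers and all EMT, RAS and 9p21 genes, the 12 largest rises and 12 largest falls (called, protein-coding, at least 10 CPM in the higher line, no overlap), up to 5 members per list by size plus those against the list's direction, and 6 per direction by share of counts. A few further list members are named without being chosen by that rule, after their values were seen, and some genes that the rule selects are not reported here. Folds are fitted values unless given as a bound (0 counts) or a ratio with an exact 95% interval (1 to 3 counts).

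Differences of T1 over NeoT were simulated in a small part of 13311 genes, all changed genes being at 1 CPM or more on average. In that test edgeR found 80% of the 2-fold and 97% of the 4-fold differences. It made 194 calls, of which 8.76% were false. The real comparison called 8892 of 13516 genes, so these shares cannot be carried over to it. The alternatives tried were scaling by RLE or by upper quartile, testing without a filter or with 1 CPM required in 3 libraries, DESeq2 1.42.0, limma-voom (limma 3.58.1) with and without weights per line, a fit to all 12 libraries, the replicate number as a block, no rRNA rows, and each library left out. A fit without both T1 replicate 1 and NeoT replicate 3 was added after seeing the data. Tables and figures were made in Python 3.11.15 (pandas 2.3.3, scipy 1.17.1, matplotlib 3.10.9).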

Additional observations from a re-analysis of the deposited data

How the results depend on the processing

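The counts of genes called stayed within 1.5 times their values under all 17 alternatives. Leaving out 1 library gave 4104 to 5121 genes higher and 3926 to 4702 lower in T1, of which 2206 to 2399 and 1769 to 1885 changed at least 2-fold, the highest counts of called genes arising without NeoT replicate 3. The fit without both T1 replicate 1 and NeoT replicate 3 gave 4886 higher and 4549 lower. Upper-quartile scaling put 48.4% of calls in the higher direction, against 51.5% with TMM. Among named genes, 39 gene-by-alternative values lost the call, 6 gained it and 6 changed sign, 5110 keeping both. The changes of sign were of NF1 and NRAS, neither called with all 6 libraries. NF1 had a log2 fold change of -0.028 with upper-quartile scaling and -0.090 to 0.20 on leaving out 1 library, below 0 without T1 replicate 2 (-0.023), NeoT replicate 1 (-0.090) or NeoT replicate 2 (-0.032), and 0.23 without both libraries. NRAS ran from -0.20 to 0.15 on leaving out 1 library and stood at 0.19 without both. The cause was not tested. Same-numbered replicates of T1 and NeoT had deviations correlated at 0.057, 0.033 and 0.109. Pairs with different numbers ran from -0.084 to 0.053. As the labels do not say that the numbers pair samples, they entered only as a block in an alternative. With the replicate block 4651 genes were higher and 4321 lower. At these depths genes under about 0.05 CPM in a line cannot be told from absent ones.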

Other observations

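The lines outside the comparison give a frame for the genes named above, as levels on a scaling over all 12 libraries and without a test. Of the 12 genes with the largest rise in T1, AP1M2, RAB25, MPZL2, SCEL and MACC1 were present in both A10 and CA1, at 34.6, 3.98, 123, 13.2 and 10.9 CPM in A10 and 139.7, 133, 65.6, 67.6 and 27.8 CPM in CA1. GRHL2 averaged 39.3 ± 3.25 CPM in CA1 and had 0 counts in A10, as in NeoT. ATP10A had 0 counts in both A10 and CA1, so counts of it came from T1 libraries. MUC16 was also present in both, at 21.1 ± 2.64 CPM in A10 and 15.4 ± 3.7 CPM in CA1. KLK7 averaged 118 ± 3.09 CPM in A10 and 0.169 ± 0.0825 CPM in CA1. For KLK5, KLK10 and A2ML1 the levels in A10 and CA1 are not reported here. Among the largest falls, DCN averaged 69.1 ± 3.25 CPM in A10 and had 0 counts in CA1, SRGN averaged 5.19 ± 0.713 CPM in A10 and 0.0419 ± 0.0726 CPM in CA1, and ADH1B averaged 1.34 ± 0.314 CPM in A10 and had 0 counts in CA1. FN1 averaged 1157 ± 104 CPM in A10 and 34 ± 3.29 CPM in CA1. ZEB1 averaged 4.07 ± 0.464 CPM in A10 and 0.394 ± 0.192 CPM in CA1.

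TBX18, a T-box factor of mesenchyme, is a case where T1 and NeoT were alike in presence and the other lines were not. It stood at 15, 12.8 and 12.4 CPM in T1 and 13.1, 14.2 and 16.6 CPM in NeoT, with overlapping replicates, and at 0 counts in A10 and CA1.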
